A study of Mus musculus with 24 samples.

Results

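Tumours from mice given RMC-6272 were compared with tumours from mice given sorafenib, both collected 24 h after a second dose. The comparison takes 3 libraries titled RMC-6272 at 24 h and 2 titled sorafenib at 24 h, 5 of the 24 libraries of the series. Genes were followed by their name and kept where the FPKM (fragments per kilobase of transcript, scaled to the mapped reads of the library) was 1 or more in at least 2 of these 5 libraries. This left 12233 of 54403 usable entries. A gene below 1 in every library of one treatment can pass this limit through the other treatment alone. Such a gene cannot be lower without overlap in that other treatment, and the list counts below can hold such genes. All mice were FVB/N and carried the Lap-tTA/Tet-O-MYC transgenes, in which a liver promoter drives a doxycycline-repressed activator of human MYC. Doxycycline was withdrawn 4 weeks after birth, which lifts the repression of MYC, and imaging to size the tumours began 4 to 5 weeks later. RMC-6272 was given at 10 mg/kg into the peritoneum once a week and sorafenib at 30 mg/kg per day by gavage, with the second dose 7 days after the first. A daily dose and a second dose after 7 days do not go together, so the number of sorafenib doses before collection is uncertain. The 3 vehicle libraries, also at 24 h, come from mice given the solvent of Transcutol, Solutol HS 15 and water into the peritoneum, so the route of vehicle is that of RMC-6272 and not that of sorafenib. The material was a piece of frozen liver cancer with all its cells. In such bulk samples fewer cells of a type and less RNA per cell cannot be told apart.

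RMC-6272 is a bi-steric inhibitor selective for mTOR complex 1 (mTORC1), the kinase complex that joins nutrient and growth factor signals to protein, lipid and nucleotide synthesis. One of its substrates, 4EBP1, binds the cap-binding protein eIF4E and holds back translation when mTORC1 is inhibited. Sorafenib is a multikinase inhibitor used in liver cancer, and its targets include RAF kinases and the receptors for VEGF and PDGF. In liver tumours driven by MYC, hepatocyte-like cells divide rapidly, and genes of the adult liver are usually low.

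The 5 libraries held 33.0 to 37.3 M (mega) reads, as recovered from the single-read steps of their low values. Single-read steps were found in 20 of the 24 libraries. The 3rd replicate of RMC-6272 at 72 h, which enters the comparison only through the shared estimate of spread, had the fewest reads (17.6 M) and 6.24% of its FPKM in globin genes. RMC-6272 replicate 2 at 24 h stood apart from the other 2 of its group, with a chi-square of 331 and 334 per gene against replicates 1 and 3, which differed by 62.9 from each other. The sorafenib pair differed by 23.9 per gene. Labels give no tie between replicates and animals, so p-values measure the spread between samples. The first part of the description codes differs between the groups throughout (Cg13 and Cg14 for RMC-6272, Cg9 for sorafenib), so what these codes stand for and treatment cannot be told apart. Differences below are in log2(FPKM + 1), RMC-6272 minus sorafenib, as the estimate ± its standard error (SE). This scale understates the change of low genes. A gene was called where limma's p, adjusted over all 12233 genes by Benjamini-Hochberg, was below 0.05.

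At 24 h the tumours under RMC-6272 had less mRNA for cell division, nucleotide synthesis, serine and proline synthesis and the sterol pathway than those under sorafenib. They had more mRNA for secreted acute phase proteins, some lipid-handling liver enzymes, targets of ERK signalling and MHC class II. In all, 1312 of 12233 genes were called (10.7%), 578 higher under RMC-6272 (4.72%) and 734 lower (6.0%). The median of all genes was -0.06, and the 5 libraries did not overlap in 28.4% of all genes with RMC-6272 higher and in 34.7% with RMC-6272 lower, 63.2% together. The count rests on single libraries. It was 435 without RMC-6272 replicate 1, 596 without replicate 2, 1 without sorafenib replicate 1 and 9 without sorafenib replicate 2. With 1 sorafenib library left, 2060 and 2043 genes still had an unadjusted p below 0.05, against 3548 with all 5. Without sorafenib replicate 1 no gene of any list below was called. Of the called genes 44.1% were higher, against 48.9% with median-ratio scaling, 39.9% with quantile normalization and 37.5% among genes at an FPKM of 5 or more in at least 2 libraries.

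Both drugs were also set against vehicle. RMC-6272 differed from vehicle in 3139 genes (25.7%), 1411 higher (11.5%) and 1728 lower (14.1%). Sorafenib differed from vehicle in 1 gene (0.00817%), the entry Mir1950, which was higher by 1.99, and 277 genes had an unadjusted p below 0.05. These 2 comparisons share their vehicle libraries, and each also shares libraries with the comparison of both drugs, so their values are set side by side for each group of genes and not correlated.

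**Figure D1:**
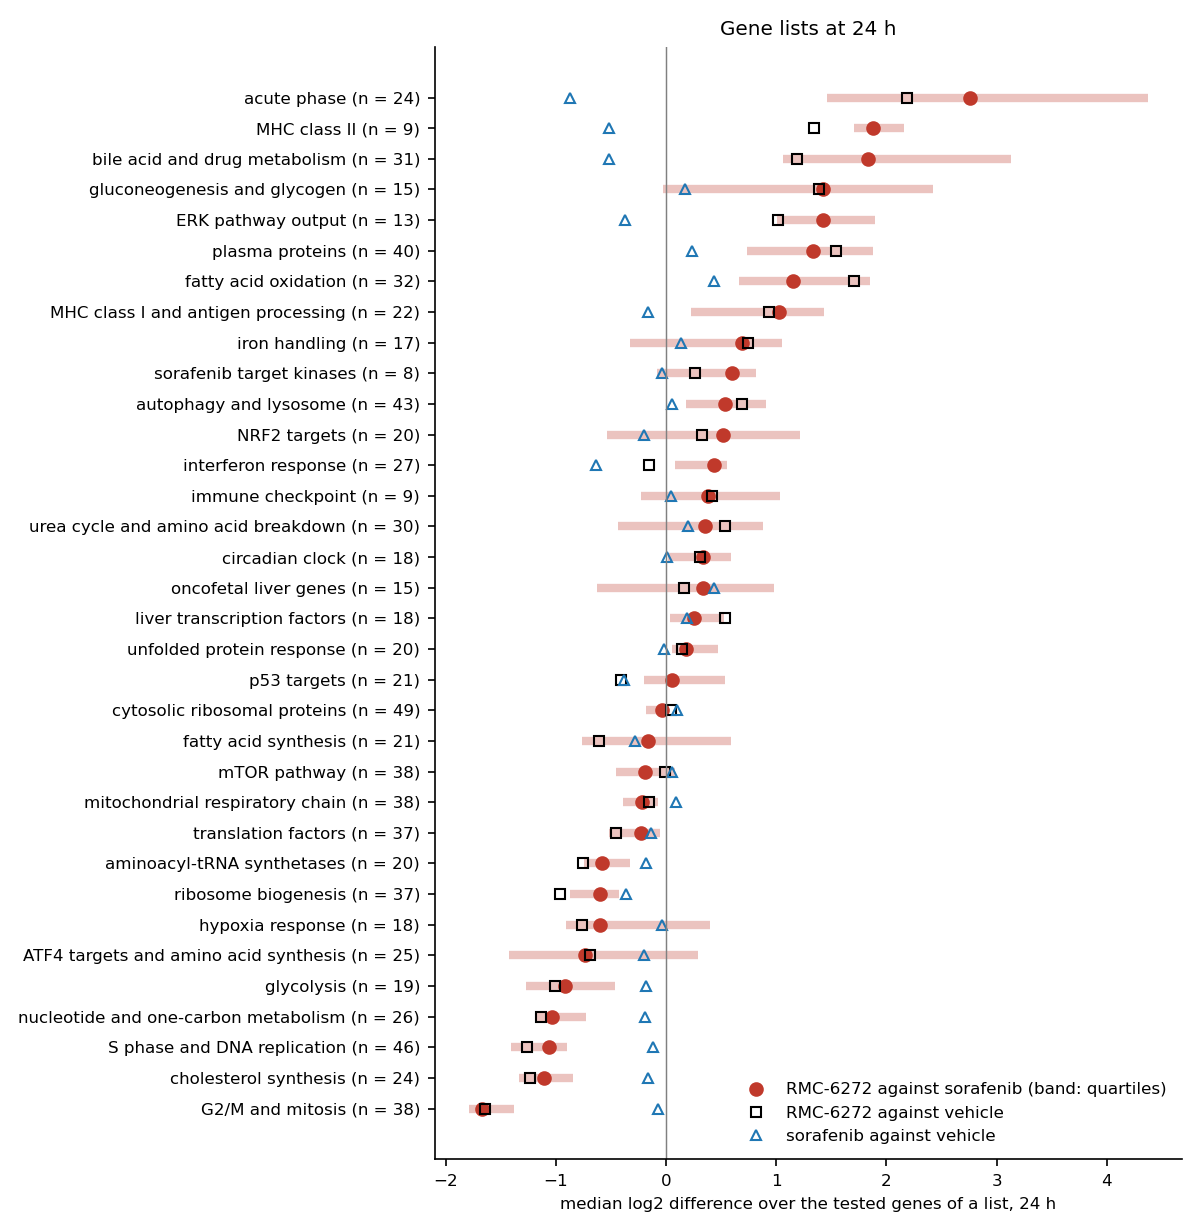
Median log2 difference over the tested genes of 34 gene lists at 24 h, on the log2(FPKM + 1) scale. Filled circles give RMC-6272 against sorafenib with a band from the lower to the upper quartile of the genes, squares RMC-6272 against vehicle, triangles sorafenib against vehicle, and n is the number of tested genes. The medians of RMC-6272 against sorafenib run from -1.67 (G2/M and mitosis) to 2.76 (acute phase).

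Genes of mitosis were lower under RMC-6272 almost throughout. All 38 listed G2/M genes were tested, 34 were lower under RMC-6272 at the adjusted threshold (background 6.0%) and none was higher, and all 38 were lower without overlap of the libraries (background 34.7%). Their median difference was -1.67, with -1.75, -1.95 and -1.19 in the 3 RMC-6272 libraries against the sorafenib mean. It was -1.64 for RMC-6272 against vehicle (37 of 38 lower) and -0.08 for sorafenib against vehicle, where no member had an unadjusted p below 0.05. The number of members called was 21 without RMC-6272 replicate 1, 21 without replicate 2 and 35 without replicate 3. The median was -1.67 without sorafenib replicate 1 and -1.66 without sorafenib replicate 2.

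The promoter of Mki67, whose protein Ki-67 is the usual mark of dividing cells, shows the sequence features that many of these genes share. Mitotic genes are known to be repressed in quiescent cells through a CHR element (TTTGAA) bound by MuvB complexes, often near CCAAT boxes bound by NF-Y. The 250 bases upstream of the Mki67 start in RefSeq (build GRCm38.p6, chr7:135716380-135716629, minus strand) are printed with the 3 CCAAT and 2 TTTGAA matches, on either strand, in capitals.
Mki67: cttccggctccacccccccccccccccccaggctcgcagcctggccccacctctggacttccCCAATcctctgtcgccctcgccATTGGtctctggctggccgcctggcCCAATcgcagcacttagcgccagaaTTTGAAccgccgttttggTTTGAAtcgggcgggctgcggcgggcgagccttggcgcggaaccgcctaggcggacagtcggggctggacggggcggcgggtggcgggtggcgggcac
CCAAT was found in 28 of 33 such windows of 31 G2/M genes (84.8%) and in 33.8% of all 32851 windows of the table. TTTGAA was found in 13 of 33 (39.4%) and in 16.0% of all. In the DNA replication genes below the shares were 58.1% and 11.6%, and in the acute phase genes 13.6% and 4.55%. Both strands were searched, and the letters of neither motif contain the other. A match is a string of letters and was not tested as a binding site.

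Mki67 itself stood at 7.46, 5.86 and 11.1 FPKM under RMC-6272, 24.4 and 22.1 under sorafenib and 23.9, 20 and 24.9 under vehicle. Both sorafenib values lay within the vehicle range, and all 3 RMC-6272 values lay below it. The difference was -1.45 ± 0.44 (adjusted p = 0.0428). Aurora kinases, which organise the spindle and the separation of chromosomes, were also lower. Aurka was at 11.1, 9.61 and 16.2 FPKM against 43.8 and 46.7 (-1.83 ± 0.26, adjusted p = 0.0018). Aurkb was at 5.36, 5.44 and 8.82 against 27.5 and 29.8 (-2.01 ± 0.31). Cdca8, which encodes the borealin subunit of the same complex as Aurkb, was at 5.16, 5.00 and 7.59 against 25.7 and 27.7 (-2.02 ± 0.31), and Ccnf, cyclin F, fell by 1.69 ± 0.25. Ccna2, cyclin A2, named after its values were seen, was at 7.88, 7.92 and 14.4 FPKM against 42.2 and 45.3, the lowest value of the list at -2.07 ± 0.33. In each of these genes replicate 3 was the RMC-6272 library nearest to sorafenib. Stmn1, which encodes the microtubule regulator stathmin, was at 8.24, 8.90 and 12.4 FPKM against 62.6 and 59.7 (-2.54 ± 0.32, adjusted p = 0.0018).

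DNA replication genes followed with smaller differences. Of 46 listed genes, all tested, 30 were lower (background 6.0%) while none was higher. The median was -1.06 (-1.26 against vehicle for RMC-6272 and -0.12 for sorafenib). Uhrf1, which keeps DNA methylation through replication, was at 10.8, 9.08 and 16.1 FPKM under RMC-6272 and at 40.5 and 43.5 under sorafenib (-1.76 ± 0.27, adjusted p = 0.00264). Rpa1 and Rpa2, subunits of the single-strand binding protein RPA, fell by 1.05 ± 0.18 and 1.54 ± 0.23, and Pola2, a subunit of the polymerase that starts new strands, by 1.27 ± 0.22. Without RMC-6272 replicate 1 the number lower was 18, and without replicate 2 it was 21.

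**Figure D2:**
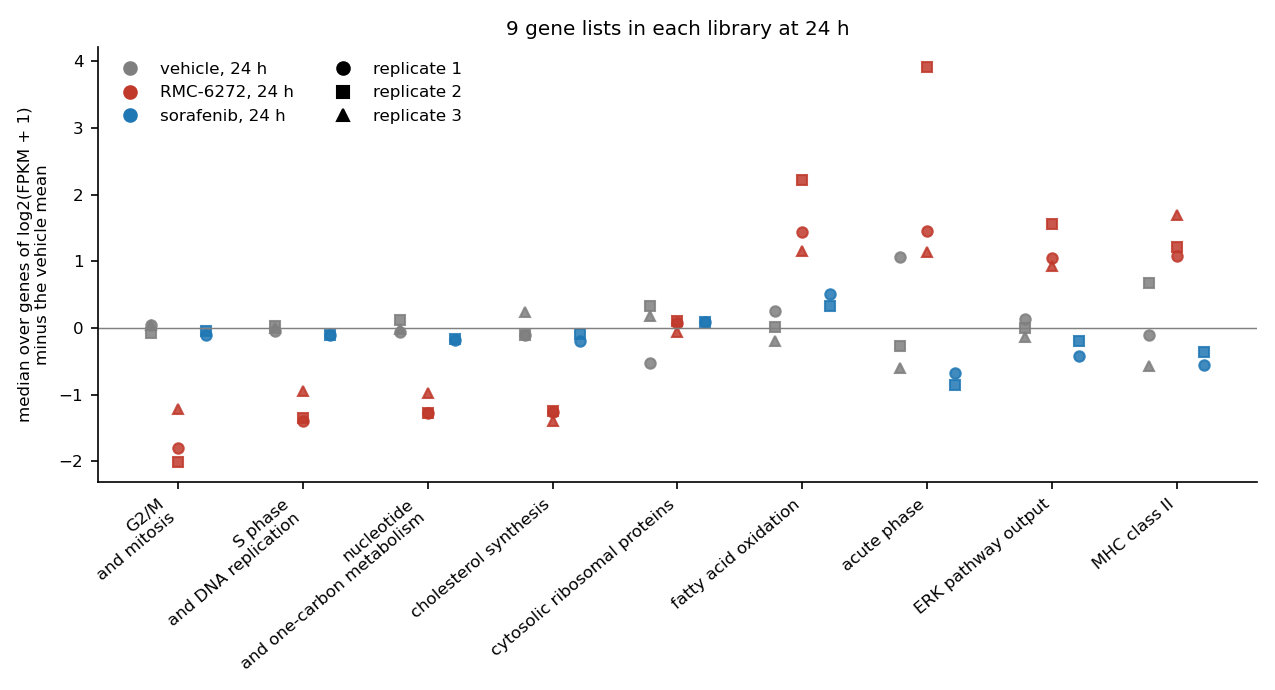
Median over the tested genes of 9 lists in each library at 24 h, as log2(FPKM + 1) minus the vehicle mean of each gene. Colours mark the treatment and shapes the replicate number, which does not pair libraries across treatments. In the G2/M list the 3 RMC-6272 libraries lie at -1.81, -2.02 and -1.22 and the sorafenib libraries at -0.11 and -0.05, and in the acute phase list RMC-6272 replicate 2 lies at 3.92, above replicates 1 and 3 at 1.46 and 1.14.

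Genes that supply nucleotides and one-carbon units were lower together. Of 26 listed genes, 13 were lower at the adjusted threshold (background 6.0%) and all 26 without overlap (background 34.7%). The median was -1.04 (-1.14 for RMC-6272 and -0.19 for sorafenib against vehicle). Mthfd2, the mitochondrial enzyme of the folate cycle and a known target of the ATF4 arm of mTORC1 signalling, was at 1.10, 1.40 and 1.74 FPKM under RMC-6272 (129, 161 and 226 reads), 16.7 and 18.1 under sorafenib (2050 and 2294 reads) and 26.3, 32.3 and 27.5 under vehicle. No library of RMC-6272 came near the other groups, and sorafenib lay below vehicle without overlap. The difference was -2.94 ± 0.50 (adjusted p = 0.00503). Ppat, which opens the purine pathway, fell by 1.29 ± 0.25, Dhodh of pyrimidine synthesis by 1.20 ± 0.25 and Amd1 of polyamine synthesis by 1.42 ± 0.30. Without RMC-6272 replicate 1 or 2, 4 and 5 members were called.

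Amino acid synthesis genes, many of them targets of ATF4, were mostly lower. Of 25 tested genes 9 were lower (background 6.0%) and 1 was higher (background 4.72%), with a median of -0.74. Aldh18a1, the enzyme that starts proline synthesis, was at 5.54, 4.57 and 8.05 FPKM against 32.1 and 29.2 under sorafenib and 31.7, 26.9 and 30.1 under vehicle (-2.20 ± 0.30, adjusted p = 0.0018). Psat1 and Psph, enzymes of serine synthesis, fell by 1.70 ± 0.31 and 1.77 ± 0.42. Slc7a1, a transporter of arginine and lysine, fell by 1.41 ± 0.31. All 4 had RMC-6272 libraries below both other groups without overlap. Without RMC-6272 replicate 1 the number lower was 3, and without replicate 2 it was 5. The member that was higher, Ddit3 (0.94), encodes CHOP, a factor of stress-induced cell death, and was named after its values were seen.

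Sterol genes were lower as a list, with fewer single calls. Of 24 tested genes of cholesterol synthesis and uptake 5 were lower (background 6.0%) and none higher. Without overlap 22 were lower (background 34.7%). The median was -1.10, with -1.03, -1.12 and -1.18 in the 3 RMC-6272 libraries, which differed little here. Idi1, an isomerase of the mevalonate pathway, was at 1.22, 0.976 and 1.70 FPKM under RMC-6272, 9.94 and 10.2 under sorafenib and 16.9, 8.30 and 9.08 under vehicle (-2.28 ± 0.46, adjusted p = 0.00929). Acat2 fell by 1.88 ± 0.45 and Srebf2, the transcription factor of the pathway, by 0.85 ± 0.25. The libraries of RMC-6272 lay below those of sorafenib in all 3 genes. Without RMC-6272 replicates 1, 2 and 3 in turn, 1, 2 and 3 sterol genes were called.

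Sugar and fatty acid genes gave few calls. In fatty acid synthesis 2 of 21 tested genes were lower (background 6.0%), Acly (-1.18 ± 0.32) and Acaca (-1.02 ± 0.32), which make cytosolic acetyl-CoA and malonyl-CoA. Neither was called without RMC-6272 replicate 1 or without replicate 2. Fasn, fatty acid synthase, was at 23.4, 17.7 and 27.9 FPKM against 57.6 and 67.4 (-1.42 ± 0.45, adjusted p = 0.0518). The median of that list was -0.16, 0.14 without RMC-6272 replicate 1 and 0.13 without replicate 3, since RMC-6272 replicate 2 gave 0.64 and the others -0.40 each. In glycolysis 4 of 19 genes were lower (background 6.0%) and none higher. Among them were Hk2, hexokinase 2 (-1.19 ± 0.33), Pfkl (-1.18 ± 0.35) and Pfkp (-1.38 ± 0.41), 2 forms of phosphofructokinase, and Pdk1 (-0.92 ± 0.28), which limits pyruvate entry to mitochondria. Leaving out any 1 RMC-6272 library left no glycolysis gene past the threshold. In the NRF2 list 3 of 20 tested genes were called, all lower (background 6.0%). They were Pgd (-1.30 ± 0.33), G6pdx (-1.09 ± 0.25) and Tkt (-1.06 ± 0.30), enzymes of the pentose phosphate pathway. The list median was 0.51, and none was called without RMC-6272 replicate 2. Of the hypoxia list 2 of 18 were lower (background 6.0%), Mxi1 (-1.10 ± 0.24) and Pdk1. Vegfa, the endothelial growth factor, was at 8.44, 17.1 and 7.74 FPKM against 6.20 and 5.46 (0.75 ± 0.50, adjusted p = 0.34).

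Of 37 tested ribosome biogenesis genes 4 were lower (background 6.0%) and none higher. The median was -0.60 (-0.96 for RMC-6272 and -0.36 for sorafenib against vehicle). Dkc1, which modifies ribosomal RNA, was at 15.3, 13.6 and 24.4 FPKM against 39.6 and 41.2 (-1.18 ± 0.24, adjusted p = 0.00975). Nolc1, Nop16 and Imp4, which act in the nucleolus, fell by 1.08 ± 0.31, 1.07 ± 0.28 and 0.97 ± 0.19. The number lower was 2 without RMC-6272 replicate 1. Of 49 genes for cytosolic ribosomal proteins none was called and none had an unadjusted p below 0.05. Their median was -0.03, and single genes ran from -0.58 to 0.54. The mRNAs of these proteins are known as the class whose translation depends most on mTORC1, which FPKM does not measure. No translation factor of 37 was called, with 9 at an unadjusted p below 0.05 and a median of -0.22. With only the 5 libraries compared in the fit (2974 genes called in all) 9 were lower. With the 20 libraries of known depth (2652 called in all) 10 were lower. Of 20 aminoacyl-tRNA synthetases 1 was lower (background 6.0%), Iars (-0.75 ± 0.23, adjusted p = 0.0476). In each of these fits with fewer libraries 11 were lower, and with median-ratio scaling none. Of 38 respiratory chain genes none was called, and 1 had an unadjusted p below 0.05.

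Within the mTOR pathway itself 3 of 38 tested genes were called, beside 10.7% of all genes. Ulk1, the kinase that starts autophagy and is held off by mTORC1, was at 18.9, 14.0 and 18.5 FPKM under RMC-6272, 7.01 and 6.10 under sorafenib and 7.89, 9.04 and 5.92 under vehicle (1.26 ± 0.31, adjusted p = 0.0205). Sesn1 and Depdc5, which restrain mTORC1 when amino acids are short, were lower by small amounts (-0.82 ± 0.20 and -0.73 ± 0.22). Leaving out RMC-6272 replicate 1 left 1 call in the list, a lower one, and leaving out replicate 2 left 1, a higher one. Eif4ebp1, which encodes 4EBP1, was at 46.7, 46.6 and 41.4 FPKM under RMC-6272, 86.1 and 96.6 under sorafenib and 51.8, 113 and 75.3 under vehicle. The drug groups did not overlap, and the difference of -1.01 ± 0.32 missed the threshold (adjusted p = 0.0544). Eif4e was at 13.2, 15.5 and 18.1 against 28.6 and 30.7 (-0.90 ± 0.35, adjusted p = 0.101). Mtor (0.43 ± 0.45), Rptor (-0.10 ± 0.17) and Eif4ebp2 (-0.46 ± 0.38) were not called. Among 43 autophagy and lysosome genes 5 were higher (background 4.72%) and 1 lower (background 6.0%), with a median of 0.54. Ctsa, a lysosomal hydrolase, rose by 1.10 ± 0.28, and Atg9b fell by 1.90 ± 0.32. Xbp1 (1.16 ± 0.27) and Dnajb9 (1.19 ± 0.35) were the 2 of 20 unfolded protein response genes that were higher (background 4.72%). Without RMC-6272 replicate 1 no gene of the autophagy or unfolded protein lists was higher by the test.

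**Figure D3:**
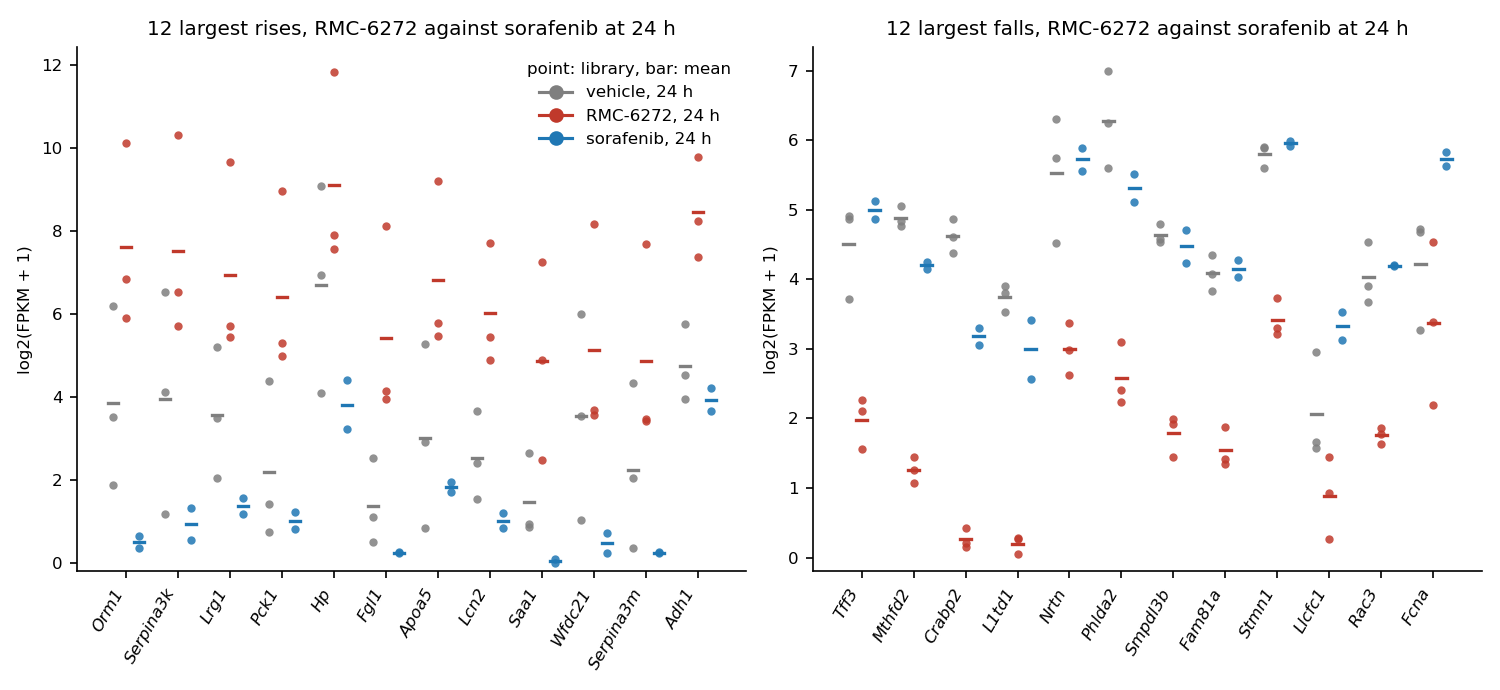
The 12 largest rises (left) and the 12 largest falls (right) among called, named genes without overlap and with a mean FPKM of 5 or more in the higher group, as log2(FPKM + 1) in each library of vehicle, RMC-6272 and sorafenib at 24 h. Points are libraries and short bars group means. In the rises the highest RMC-6272 point is replicate 2 in every gene, and in 11 of the 12 falls the RMC-6272 libraries lie within 2 log2 units of each other.

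The largest rises were mostly secreted products of hepatocytes. The acute phase response is the change of liver secretion in inflammation, driven in hepatocytes by IL-6 through STAT3 and by C/EBP factors. Of 25 listed genes 24 were tested, 14 were higher under RMC-6272 (background 4.72%) and none was lower, with a median of 2.76. The medians of the 3 RMC-6272 libraries were 2.11, 4.76 and 1.82. The list median was 2.19 for RMC-6272 against vehicle, with 14 members called, and -0.87 for sorafenib against vehicle, with none called and 2 at an unadjusted p below 0.05. The number higher was 8 without RMC-6272 replicate 1 and 6 without replicate 2.

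Promoters of this group are shown by Saa1 and Orm2, whose windows hold a C/EBP-like match, TTGCNNAA, on either strand, in capitals. The windows are the 250 bases upstream of the start in RefSeq (build GRCm38.p6), for Saa1 chr7:46742981-46743230 on the minus strand and for Orm2 chr4:63362199-63362448 on the plus strand.
Saa1: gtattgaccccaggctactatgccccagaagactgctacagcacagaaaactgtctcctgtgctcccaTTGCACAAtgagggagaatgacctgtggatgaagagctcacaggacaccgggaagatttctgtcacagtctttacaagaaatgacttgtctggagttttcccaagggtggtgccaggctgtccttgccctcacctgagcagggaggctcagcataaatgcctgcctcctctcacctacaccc
Orm2: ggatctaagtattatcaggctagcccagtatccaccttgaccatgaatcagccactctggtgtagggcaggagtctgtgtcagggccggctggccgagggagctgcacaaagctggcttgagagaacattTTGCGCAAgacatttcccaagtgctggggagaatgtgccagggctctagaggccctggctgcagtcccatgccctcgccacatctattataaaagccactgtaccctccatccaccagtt
TTGCNNAA was found in 11 of 22 windows of 19 acute phase genes (50%), in 9.56% of all windows and in 0 of 33 G2/M windows. Windows of the plasma protein genes below held it in 11 of 37 cases (29.7%). The STAT-like letters TTCNNNGAA were found in 5 of 22 (22.7%) and in 7.02% of all.

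Orm1, an orosomucoid and one of the major acute phase proteins of plasma, was at 114, 1117 and 59.3 FPKM under RMC-6272 (2979, 28614 and 1715 reads) and at 0.587 and 0.284 under sorafenib (16 and 8 reads). Vehicle stood at 72.0, 10.5 and 2.67 FPKM. Replicate 2 was the highest of all, sorafenib was the lowest group, and vehicle overlapped RMC-6272. The difference was 7.12 ± 1.18 (adjusted p = 0.00485), of which sorafenib against vehicle made -3.35 and RMC-6272 against vehicle 3.77. Saa1, serum amyloid A, was at 28.8, 152 and 4.56 FPKM against 0.0804 and 0.0111 (7 and 1 reads), with 5.25, 0.909 and 0.824 under vehicle (4.81 ± 0.90, adjusted p = 0.00631). Reads of Orm1 and Orm2, and of Saa1 and Saa2, can be split between near-identical copies, so single values of these genes are uncertain. This holds also for Serpina3k and Serpina3m.

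Hp, haptoglobin, which binds free haemoglobin, was at 188, 3681 and 238 FPKM under RMC-6272, 20.2 and 8.36 under sorafenib and 542, 122 and 16.1 under vehicle (5.29 ± 1.57, adjusted p = 0.0404). Vehicle spanned RMC-6272 replicates 1 and 3, and RMC-6272 against vehicle was not called (2.40). Lcn2, lipocalin 2, which withholds iron from bacteria, was at 42.9, 209 and 28.8 against 1.31 and 0.797 (4.99 ± 1.21). Fgl1, a secreted fibrinogen-like protein, was at 14.6, 279 and 16.8 against 0.199 and 0.186 (5.16 ± 1.15). Cp, the copper-carrying ferroxidase of plasma, was at 74.9, 133 and 37.4 against 3.18 and 2.15, with vehicle at 23.2, 5.79 and 2.57 (4.33 ± 0.73, adjusted p = 0.00503). In Cp and Lcn2 every RMC-6272 library lay above every vehicle library, whereas in Hp it did not. Serpina3k (6.59 ± 1.71), Lrg1 (5.56 ± 1.30), Wfdc21 (4.66 ± 1.35) and Serpina3m (4.6 ± 1.31) were likewise highest in RMC-6272 replicate 2. Hamp, the iron hormone hepcidin, was at 314, 4469 and 555 against 81.3 and 19.2 (4.50 ± 1.27, adjusted p = 0.0337). Tfrc, the transferrin receptor that takes up iron, fell by 2.06 ± 0.52. With Id1 (1.91 ± 0.33), Hamp and Cp were the 3 of 17 iron genes that were higher (background 4.72%), and Tfrc the 1 that was lower (background 6.0%). Of 18 clock genes Per2 (1.19 ± 0.25) and Rora (1.22 ± 0.38) were higher (background 4.72%). Wee1, a kinase that delays mitosis, was lower (-0.83 ± 0.22, background 6.0%).

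Some enzymes of fat use in the liver were higher. Of 32 fatty acid oxidation genes 4 were called, all higher (background 4.72%), and 25 were higher without overlap (background 28.4%). The median was 1.15 (1.71 for RMC-6272 and 0.43 for sorafenib against vehicle). Ehhadh, a peroxisomal oxidation enzyme, was at 128, 128 and 92.9 FPKM under RMC-6272, 10.8 and 9.66 under sorafenib and 10.6, 4.12 and 6.58 under vehicle (3.37 ± 0.82, adjusted p = 0.0188). Plin2, the coat protein of lipid droplets, was at 398, 477 and 300 against 36.7 and 44.1 (3.22 ± 0.67). Vnn1 (4.15 ± 0.88) and Acadl (1.6 ± 0.39) were the others. Without RMC-6272 replicate 1 or 2 the number called was 2. In Ehhadh, Plin2 and Acadl the 3 RMC-6272 libraries lay close together and above every library of the other groups.

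Other functions of the adult liver rested more on replicate 2. Pck1, the enzyme that commits carbon to glucose synthesis, was at 38.6, 497 and 30.6 FPKM against 1.34 and 0.77 (5.39 ± 1.35, adjusted p = 0.0207), and Gys2, liver glycogen synthase, at 30.7, 73.9 and 41.2 against 4.56 and 4.22 (3.11 ± 0.83). They were the 2 of 15 gluconeogenesis and glycogen genes called, where 4.72% of all genes were higher. Neither was called without RMC-6272 replicate 2. In bile acid and drug metabolism the median was 1.83, made of 1.05, 3.78 and 0.95 in the 3 RMC-6272 libraries. Of 31 tested genes 3 were higher (background 4.72%). They were Ephx1 (3.11 ± 0.93), Abcb4 (2.41 ± 0.73) and Cyp27a1 (1.65 ± 0.51), and none was called without replicate 2. Adh1, alcohol dehydrogenase, was at 302, 885 and 164 FPKM against 11.7 and 17.5 (4.53 ± 0.85, adjusted p = 0.00631), and Apoa5, an apolipoprotein of triglyceride clearance, at 43.7, 589 and 54.1 against 2.88 and 2.26 (4.99 ± 1.49). Of 30 urea cycle and amino acid breakdown genes none was called, with 4 at an unadjusted p below 0.05.

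Among 40 plasma proteins 4 were higher (background 4.72%) and none lower, with a median of 1.34. F11, coagulation factor XI, was at 35.1, 27.1 and 24.7 FPKM under RMC-6272, 2.30 and 1.73 under sorafenib and 3.22, 1.65 and 0.559 under vehicle (3.30 ± 0.48, adjusted p = 0.00242). Ahsg, fetuin A, was at 5982, 5910 and 3585 against 540 and 387 (3.45 ± 0.80), and Hpx, the haem-binding hemopexin, at 1009, 4875 and 693 against 133 and 186 (3.25 ± 0.82). Serpina1a rose by 1.73 ± 0.38. F11 and Ahsg did not follow replicate 2. Alb, albumin, was at 5555, 12907 and 3773 FPKM against 1128 and 1362 and did not pass (2.38 ± 0.80, adjusted p = 0.0643). Of the liver transcription factors 1 of 18 was higher, Foxa3 (0.77 ± 0.23), where 4.72% of all genes were higher.

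Of 15 tested oncofetal liver genes 1 was higher (background 4.72%) and 1 lower (background 6.0%), with a median of 0.33. Afp, the fetal serum protein and marker of liver cancer, was at 10102, 4128 and 6391 FPKM under RMC-6272 and 1876 and 1846 under sorafenib, without overlap, and missed the threshold (1.79 ± 0.64, adjusted p = 0.079). Gpc3, the oncofetal proteoglycan glypican 3, was at 48.6, 28.6 and 22 against 1.70 and 6.06 (2.89 ± 0.66, adjusted p = 0.015). Tff3, a trefoil peptide, was at 3.32, 3.81 and 1.96 FPKM under RMC-6272, 33.8 and 28.2 under sorafenib and 12.2, 28.3 and 29.0 under vehicle (-3.01 ± 0.82, adjusted p = 0.0281). The call for Tff3 was lost without any 1 RMC-6272 library, and that for Gpc3 without replicate 1. L1td1, an RNA-binding protein of pluripotent cells, was at 0.215, 0.0381 and 0.203 FPKM (23, 4 and 24 reads) against 4.94 and 9.65 (-2.79 ± 0.50). Crabp2, a retinoic acid carrier, was at 0.112, 0.160 and 0.345 FPKM (5, 7 and 17 reads) against 7.30 and 8.88, with vehicle at 23.4, 28.2 and 19.9 (-2.91 ± 0.74). In Crabp2 sorafenib stood between RMC-6272 and vehicle without overlap. Phlda2, an imprinted growth regulator, fell by 2.73 ± 0.59, Nrtn, the growth factor neurturin, by 2.73 ± 0.68 and Rac3, a small GTPase, by 2.44 ± 0.41. The remaining falls were Smpdl3b (-2.69 ± 0.47), Fam81a (-2.61 ± 0.45), Llcfc1 (-2.45 ± 0.68) and Fcna, a secreted lectin of macrophages (-2.35 ± 0.69). Llcfc1 and Fcna under RMC-6272 did not differ from vehicle by the test (-1.18 and -0.85).

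Genes induced by ERK signalling were higher under RMC-6272. All 13 tested of 19 listed genes were higher without overlap (background 28.4%), 8 of them called (background 4.72%). The median was 1.42, against 1.02 for RMC-6272 and -0.37 for sorafenib against vehicle. No member had an unadjusted p below 0.05 for sorafenib against vehicle. Dusp6, the phosphatase that ERK induces and that inactivates ERK, was at 33.7, 27.5 and 20.3 FPKM under RMC-6272, 3.69 and 4.14 under sorafenib and 4.76, 4.23 and 3.74 under vehicle (2.49 ± 0.59, adjusted p = 0.0175). Egr1, an immediate early transcription factor named after its values were seen, was at 20.1, 18.6 and 11.8 against 2.27 and 1.78 (2.53 ± 0.75). Epha2, an ephrin receptor, rose by 1.59 ± 0.35 and Spred1, a feedback inhibitor of RAS signalling, by 1.28 ± 0.30. In Dusp6 the sorafenib libraries lay beside vehicle. In Egr1 both sorafenib libraries lay below every vehicle library, and the difference of sorafenib against vehicle (-0.54) was not called. In both genes the RMC-6272 libraries lay far above the sorafenib and vehicle libraries. Myc, below, is also in the list. The number called was 3 without RMC-6272 replicate 1 and 4 without replicate 2.

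The mouse Myc entry was at 6.32, 6.68 and 6.47 FPKM under RMC-6272, 0.827 and 1.22 under sorafenib and 2.02, 1.73 and 1.14 under vehicle (1.89 ± 0.43, adjusted p = 0.0146). The 3 RMC-6272 values were close to each other and lay above both other groups. Whether reads of the human transgene count into it is not given in the sources used here, so it is no measure of the transgene. Of 8 tested kinases that sorafenib inhibits 1 was higher (background 4.72%), Pdgfrb, the PDGF receptor of stellate cells and pericytes. Pdgfrb was at 9.89, 9.73 and 12.9 FPKM under RMC-6272, 2.11 and 2.48 under sorafenib and 2.68, 3.56 and 1.35 under vehicle (1.84 ± 0.39, adjusted p = 0.0112). Kdr, the main VEGF receptor, was at 1.81, 2.73 and 1.64 against 0.583 and 0.774 and was not called (0.85 ± 0.69, adjusted p = 0.45).

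MHC class II genes, which present antigen to CD4 T cells, were higher in 7 of 9 tested members (background 4.72%) and lower in none. All 9 were higher without overlap (background 28.4%), the median was 1.87, and the 3 RMC-6272 libraries gave 1.79, 1.85 and 2.12. Cd74, the invariant chain, was at 363, 312 and 500 FPKM under RMC-6272, 69.7 and 104 under sorafenib and 115, 292 and 73.4 under vehicle (2.16 ± 0.58, adjusted p = 0.0264). H2-Eb1 was at 4.82, 4.37 and 7.42 against 0.481 and 0.325 (2.19 ± 0.45). It passed the filter only through RMC-6272, so it could not have been lower without overlap. Ctss, the protease that trims the invariant chain, was at 170, 165 and 275 against 36.2 and 39.6 (2.36 ± 0.53), and H2-DMa, which loads peptides, rose by 1.86 ± 0.43. For sorafenib against vehicle the median was -0.51, and vehicle replicate 2 came near the RMC-6272 libraries in Cd74. The number called was 3 without any 1 of the RMC-6272 libraries.

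In MHC class I and antigen processing 5 of 22 tested genes were higher (background 4.72%) and none lower, with a median of 1.02. H2-D1 was at 296, 663 and 287 FPKM against 87.0 and 105 (1.99 ± 0.48, adjusted p = 0.018), and Tap2, a subunit of the peptide transporter, at 4.27, 8.88 and 3.67 against 0.813 and 1.08 (1.69 ± 0.48). H2-Q4 (1.76 ± 0.32) and H2-M3 (1.42 ± 0.41) were also higher. Reads of H2 genes can be split between near-identical copies. The number called was 2 and 1 without RMC-6272 replicates 1 and 2. Of 27 interferon response genes none was called, and 1 had an unadjusted p below 0.05. Cd274, which encodes the checkpoint ligand PD-L1, was at 5.33, 2.80 and 5.76 FPKM against 0.754 and 0.767, with vehicle at 1.68, 2.58 and 0.504 (1.63 ± 0.45, adjusted p = 0.0311). Of 9 checkpoint genes 2 were higher (background 4.72%), Cd274 and Cd47, and neither without RMC-6272 replicate 1. Cd47, the signal that holds off phagocytosis, rose by 1.03 ± 0.31. Of 21 p53 targets 1 was higher (background 4.72%) and 1 lower (background 6.0%), Fas and Sesn1. Fas, a death receptor, was at 11.9, 16.0 and 6.15 against 4.19 and 2.02 (1.56 ± 0.37). Ccl2, a monocyte chemoattractant, was at 5.67, 6.09 and 5.89 FPKM under RMC-6272, 0.975 and 0.773 under sorafenib and 3.21, 2.46 and 4.16 under vehicle (1.88 ± 0.21, adjusted p = 0.00106). Sorafenib lay below and RMC-6272 above all vehicle values.

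Markers of several cell types differed beside these genes, and their part in the differences above was not tested. The labelled tissue is liver cancer. Of 10 hepatocyte markers all were tested, 2 were higher (Ahsg and Serpina1a, background 4.72%) and 9 were higher without overlap (background 28.4%). Their summed FPKM was 12896 to 31025 under RMC-6272, 5313 to 5534 under sorafenib and 3311 to 6330 under vehicle. Hnf4a, the hepatocyte transcription factor, was at 107, 134 and 80.5 against 106 and 106 and was not called (-0.02, with the other sign under median-ratio scaling). Asgr1, a receptor of mature hepatocytes, was at 15.1, 425 and 25.6 against 3.45 and 3.27 (3.70 ± 1.38, adjusted p = 0.0899). Clec4f, a marker of Kupffer cells, was at 1.71, 35.8 and 3.49 FPKM under RMC-6272, 3.77 and 0.134 under sorafenib and 20.6, 3.25 and 0.121 under vehicle. Clec4g, a marker of liver sinusoidal endothelium that did not pass the filter, was at 0.519, 11.3 and 0.925 under RMC-6272, 0.3 and 0.067 under sorafenib and 1.85, 0.379 and 0.0221 under vehicle. Both were highest in RMC-6272 replicate 2 and vehicle replicate 1 among their groups, as Orm1 was, and both were named after their values were seen.

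**Figure D4:**
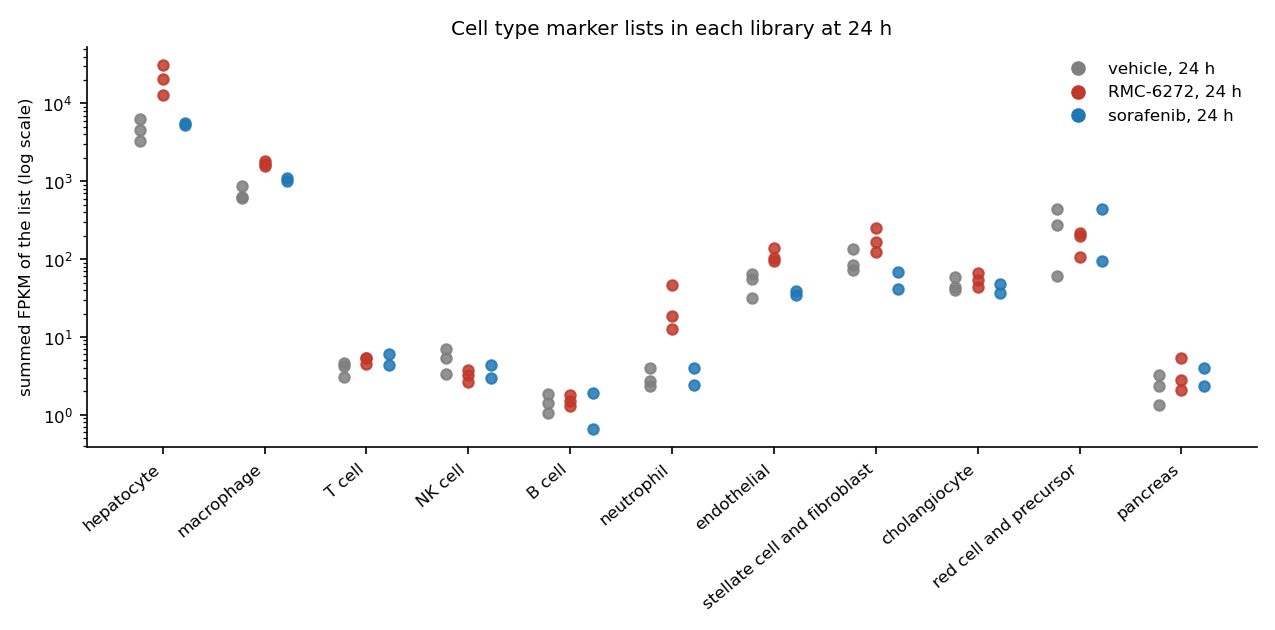
Summed FPKM of 11 lists of cell type markers in each library at 24 h, on a log scale. Points are libraries of vehicle, RMC-6272 and sorafenib. Sums for neutrophil, endothelial, stellate cell and hepatocyte markers under RMC-6272 lie above both sorafenib libraries, and T cell and B cell sums overlap.

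Of 18 tested macrophage markers 1 was higher (background 4.72%), Trem2, a lipid-sensing receptor. Trem2 was at 13.8, 13.1 and 13.9 FPKM under RMC-6272, 1.17 and 1.43 under sorafenib and 0.367, 1.88 and 2.83 under vehicle (2.67 ± 0.59, adjusted p = 0.0132). Timd4, a marker of resident Kupffer cells, was lower with 2.83, 3.72 and 1.18 against 11.6 and 10.8 (-1.84 ± 0.57, adjusted p = 0.0483). That call was lost without any 1 library of the RMC-6272, sorafenib or vehicle groups at 24 h, with a pseudocount of 0.1, with no filter and with median-ratio scaling. The list median was 0.64, and 9 of 18 genes were higher without overlap (background 28.4%). Of the pan-macrophage genes, here chosen after their values were seen, Cd68 was at 153, 109 and 184 FPKM against 61.5 and 66.2, without overlap (1.17 ± 0.45, adjusted p = 0.0984). C1qa (-0.02) and Adgre1 (-0.02) were not called either, and both take the other sign under median-ratio scaling. The summed FPKM of the list was 1573 to 1823 under RMC-6272, 1003 to 1100 under sorafenib and 614.8 to 870.9 under vehicle. Stellate cell and fibroblast markers were higher in 2 of 16 tested genes (background 4.72%), Pdgfrb and Postn (1.58 ± 0.39). Without overlap 15 of 16 were higher (background 28.4%). Their median was 1.45, with sums of 123 to 249.9 under RMC-6272, 41.7 to 68.2 under sorafenib and 72.1 to 135.2 under vehicle. No endothelial marker of 15 was called, with 6 at an unadjusted p below 0.05. With only the 5 libraries compared in the fit 12 were higher, without RMC-6272 replicate 3 at 72 h 6, and with the 20 libraries of known depth 0. All 15 were higher without overlap (background 28.4%), and the median was 0.87.

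Lymphocyte markers were near the floor. Of 12 T cell markers 1 passed the filter, Cd4 (1.72, 1.20 and 1.77 FPKM against 2.22 and 2.18), of 8 B cell markers none, and of 9 NK cell markers 1, Nkg7. The defining T cell gene Cd3e was near 0 in the 5 libraries (0.16, 0.83 and 0.37 against 0.12 and 0.26). Neutrophil sums were 12.6 to 45.8 under RMC-6272, 2.40 to 4.05 under sorafenib and 2.35 to 3.94 under vehicle. None of the 4 tested neutrophil markers was called, and S100a9, at 4.27, 6.61 and 20.2 FPKM against 1.25 and 0.369, gave 2.43 ± 1.43 (adjusted p = 0.272). This depended on the libraries in the fit. With only the 5 libraries compared 3 were higher, without RMC-6272 replicate 3 at 72 h 4, and with the 20 libraries of known depth 0. Ly6g, a defining marker of neutrophils, was listed at 0 in all 5. Cholangiocyte, red cell and pancreas markers gave no call.

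The same drugs were set side by side at 48 h in 5 other libraries, 3 of RMC-6272 and 2 of sorafenib. The description codes are partly shared between the times. RMC-6272 replicate 3 at 48 h has Cg14 and sorafenib replicate 1 at 48 h has Cg9, as in the 24 h groups of these drugs. At 48 h 11 genes were called (0.0899%), 9 higher (0.0736%) and 2 lower (0.0163%). An unadjusted p below 0.05 was found for 1073 genes. Of the 578 genes higher at 24 h, 96.0% had a positive difference at 48 h, where the share over all genes was 43.7%. Of the 734 lower at 24 h, 97.5% were negative at 48 h, where the share over all genes was 56.3%. Their medians were 1.27 and -1.06 at 24 h, and 0.63 and -0.44 at 48 h. The genes were chosen by passing at 24 h, which makes their 24 h medians too large in size. The smaller medians at 48 h therefore do not measure a change with time. No gene passed the test of the difference between 24 h and 48 h, with 399 at an unadjusted p below 0.05, so no single change with time is called.

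**Figure D5:**
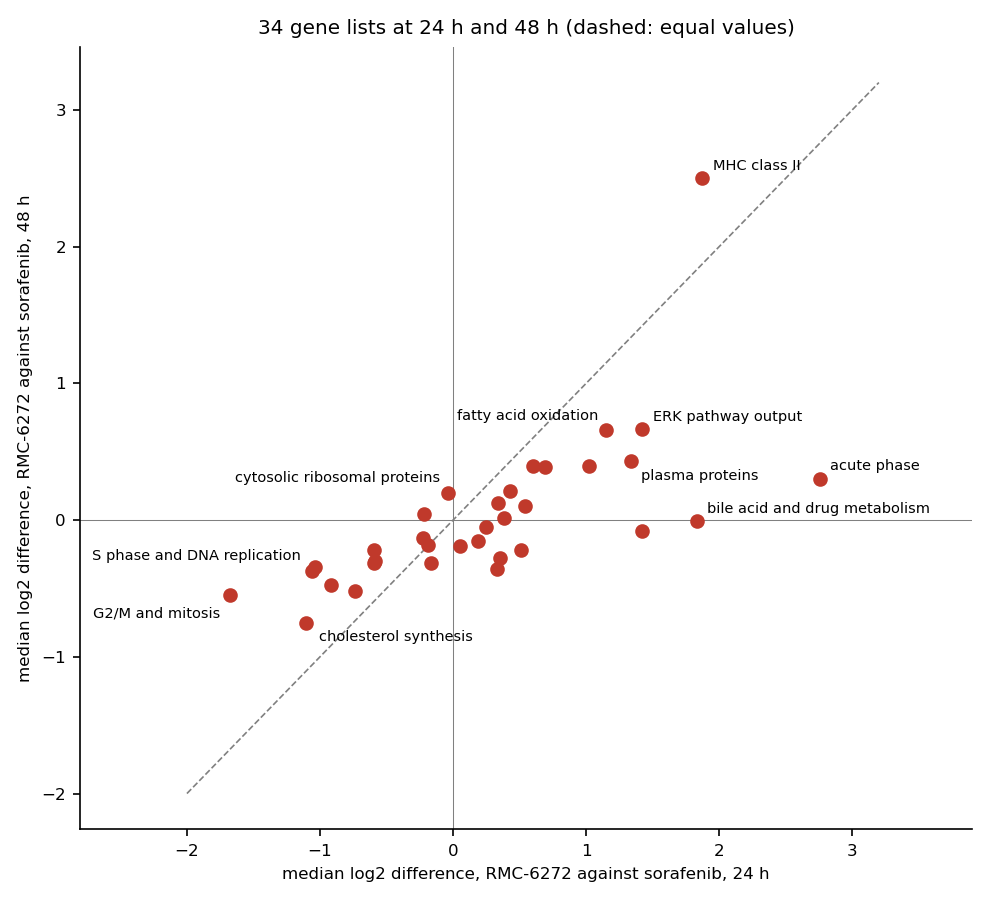
Median log2 difference between RMC-6272 and sorafenib over the tested genes of 34 gene lists, at 24 h (horizontal) and at 48 h (vertical), from separate libraries. The dashed line marks equal values. MHC class II (1.87 and 2.5) lies above the line, and the acute phase list (2.76 and 0.30) lies far below it.

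List medians at 48 h are given next, and their change between the times was not tested. The G2/M median was -0.55, with 5 of 38 members at an unadjusted p below 0.05 and none called. Mki67 at 48 h was lower by 0.41 on the log2 scale, as an estimate that did not pass, and Tk1, thymidine kinase, went from -1.59 to 0.03. The acute phase median was 0.30 with no member at an unadjusted p below 0.05. At 24 h it was 4.76 in RMC-6272 replicate 2, above 2.11 and 1.82 in replicates 1 and 3. Orm1 stood at 16.0, 2.63 and 7.18 FPKM under RMC-6272 and 43.6 and 3.56 under sorafenib at 48 h, where the groups overlapped. The test of its change between times gave 7.96 ± 1.67 with an adjusted p of 0.9998 and an unadjusted p of 0.00018.

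The MHC class II median was 2.5 at 48 h, all 9 members had an unadjusted p below 0.05, and 3 were called (background 0.0736%), Cd74, H2-Ab1 and H2-DMa. The test of the change between 24 h and 48 h gave no class II gene an unadjusted p below 0.05. The macrophage markers had a median of 1.02 at 48 h with 8 of 18 at an unadjusted p below 0.05, and summed FPKM of 817 to 2498 under RMC-6272 and 633 to 859 under sorafenib. Their part in the class II result was not tested. Cd74 was at 965, 656 and 535 FPKM under RMC-6272 and 84.2 and 71.9 under sorafenib (3.15 ± 0.58, adjusted p = 0.0496). H2-Ab1, a class II beta chain named after its values were seen, was at 130, 78.6 and 60.4 against 9.11 and 7.04 (3.26 ± 0.51, adjusted p = 0.0398). The other genes higher at 48 h, also named after their values were seen, were Cd52, Itgax, Scimp, Rap1gap, H2-Ea-ps and the entry Mir122, and the 2 lower were Ly75, an endocytic receptor of dendritic cells, and Slc7a3, an arginine transporter. Cd52, a surface protein of leukocytes, was at 13.3, 16.0 and 16.6 FPKM against 4.63 and 4.01 at 24 h (1.61 ± 0.29) and at 22.3, 32.7 and 16.4 against 4.63 and 4.06 at 48 h (2.16 ± 0.29). Itgax, a marker of dendritic cells and some macrophages, was higher at both times (1.22 ± 0.27 and 1.49 ± 0.27). The count at 48 h was 0 without sorafenib replicate 1 or 2 at 48 h, 0 without RMC-6272 replicate 1 or 2, and 41 without RMC-6272 replicate 3.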

How the data were processed

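RNA from frozen tumours of 24 libraries was sequenced, and the authors deposited 1 table of FPKM values per gene and library. Per the submitters' processing notes the tools include STAR 2.5 and HTSeq 0.6.1 and the build is mm9, and their roles are not given in the sources used here. Of 54532 entries, 27 with names turned into dates and 102 with a repeated name were left out, and 54403 were kept. In a block of 1025 entries the identifiers are shifted against the names, and 566 others do not match, so genes were followed by name. All 24 columns of values were matched to samples by the description codes. Strand use in the counting is not given in the sources used here.

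The values were tested as log2(FPKM + 1), a pseudocount of 1, with limma 3.58.1 (R 4.3.3, lmFit and eBayes with trend) over all 24 libraries with 1 mean per group, and p-values were adjusted by Benjamini-Hochberg over 12233 genes. Every adjusted p in the text is from this fit. Low FPKM values of 20 libraries were whole multiples of the value of 1 read in 98.2% to 98.7% of cases (tolerance 0.02 reads), which gave the depths. In the other 4 libraries (doxycycline and RMC-4627) the share was 3.63% to 4.22%, and their depth is unknown. In simulated data for RMC-6272 against sorafenib at 24 h (12233 genes), 100 genes were changed by log2 1 and 100 by log2 2. All had a mean FPKM of 5 or more, and noise was drawn independently for each library with 1 spread per gene. The fit recovered 31% of changes of log2 1 and 75% of log2 2, with 5.36% false among those called. The real data hold more called genes and a library that stands apart, so these shares are not the error rates of the comparison.

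The comparison, its gene lists and its tests were chosen with earlier results of these data known. Named genes are up to 12 rises and 12 falls of largest size among called genes without overlap. These had a mean FPKM of 5 or more in the higher group, and unnamed models, pseudogenes, Mup and antigen receptor genes were left out. Added to them are up to 4 members per list by smallest p, called or not. So are up to 10 genes of smallest p for the difference between times (given for Orm1). Always named are Mtor, Rptor, Eif4ebp1, Eif4ebp2, Eif4e, Myc, Afp, Alb, Mki67, Cd274, Dusp6, Vegfa, Pdgfrb and Kdr. Genes named outside this rule, among them marker genes and the genes called at 48 h, were chosen after their values were seen. Alternatives were another pseudocount, other filters, median-ratio and quantile scaling, fewer libraries, the description code or replicate number as a block, and each library left out in turn. Promoter sequences are from RefSeq (GRCm38.p6), matched by symbol. Some genes that the rule names are not reported here.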

Additional observations from a re-analysis of the deposited data

Results flagged for a closer look

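A single library of RMC-6272 at 12 h, which enters no comparison here beyond the shared estimate of spread, held each of the 12 largest rises above every vehicle library. It has no replicate and was not tested, and its genes are those already chosen as the largest rises at 24 h. Orm1 was at 5037 FPKM there, Saa1 at 1700, Hp at 11015, Lrg1 at 1364 and Lcn2 at 1068. Wfdc21 was at 486.6 FPKM, Serpina3k at 365, Fgl1 at 327 and Serpina3m at 116. Among the metabolic genes Adh1 was at 266.1 FPKM, Apoa5 at 191.2 and Pck1 at 180.6. No group compared here has 4 or more libraries, so no library was tested as an outlier.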

How the results depend on the processing

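The 1312 genes called between RMC-6272 and sorafenib at 24 h became 2974 with only the 5 libraries in the fit, 2652 with the 20 libraries of known depth and 1978 without RMC-6272 replicate 3 at 72 h, a setting chosen after seeing the data. With 1 of these 5 libraries left out they ran from 1 to 1042, and with 1 vehicle or 48 h library left out from 1072 to 1364. RMC-6272 against vehicle gave 4774 with 20 libraries, 1786 to 2519 with 1 of its own 6 libraries left out and 2802 to 3129 with 1 sorafenib or 48 h library left out. Sorafenib against vehicle gave 0 by limma with a pseudocount of 0.1 (258 at an unadjusted p below 0.05), 7 with no filter, 0 at an FPKM of 5 or more (129 unadjusted) and 0 to 1 with 1 library left out. At 48 h the count was 3 with a pseudocount of 0.1, 5 with no filter, 2 at an FPKM of 5 or more, 5 with median-ratio scaling, 1 with 20 libraries, 3 with the replicate block, 24 without RMC-6272 replicate 3 at 72 h and 0 to 41 with 1 library left out. The difference between 24 h and 48 h gave 2 with no filter and 0 to 1 with 1 library left out. The cause was not tested. Replicate numbers did not pair the samples (correlations within ±0.0228), and with the replicate block 1268 genes were called at 24 h.

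Signs turned in the medians of 7 lists and in 4 named genes, none of these genes called. The fatty acid synthesis median was 0.14 with the description code as block and -0.37 to 0.14 with 1 library left out, and the p53 median was -0.046 with the code block. The cytosolic ribosomal protein median was 0.011 with median-ratio scaling, and the urea cycle median, 0.35 with all 5 libraries, was -0.17 without RMC-6272 replicate 2. The NK cell, red cell and pancreas medians, over 1 to 4 tested genes, turned with 1 library left out. Under median-ratio scaling Adgre1 gave 0.013, C1qa 0.025 and Hnf4a 0.029, and under quantile scaling C1qa gave 0.015 and Hnf4a 0.020. With the replicate block Adgre1 gave 0.14, C1qa 0.15 and Hnf4a 0.066, and with the code block Hnf4a gave 0.10. With 1 library left out Adgre1 ran from -0.065 to 0.051, C1qa from -0.15 to 0.10, Hnf4a from -0.19 to 0.17 and Nkg7 from -0.62 to 0.34.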
